A study of Homo sapiens with 6 samples.

Results

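Described here are 10 genes of the Wnt pathway out of 58302 in the deposited gene table: the feedback targets *AXIN2*, *DKK1*, *NKD1*, *RNF43* and *ZNRF3*, the R-spondin receptors *LGR4* and *LGR5*, and the transcription factors *TCF7*, *LEF1* and *TCF7L2*. They were taken by gene name, and all 10 had a row. S541, which the labels also call 5n, was given at 1.0 µM for 48 h (3 libraries), and control cells received the solvent DMSO for the same time (3 libraries). Both groups are labelled as A549, a line from a human lung adenocarcinoma, with no allele or second agent named, and the study's title concerns carbazole derivatives and mitochondria. No label tells if replicates came from separate cultures, so the p-values rest on library-to-library spread that may be purely technical.

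Canonical Wnt signalling runs from secreted Wnt ligands through Frizzled receptors and their LRP5 and LRP6 co-receptors to β-catenin. Without a ligand, a destruction complex built on axin and APC marks β-catenin for degradation. With a ligand, β-catenin reaches the nucleus, binds factors of the TCF/LEF family and raises the transcription of target genes. Several of those targets, such as *AXIN2*, *NKD1*, *RNF43* and *ZNRF3*, encode inhibitors of the pathway, so their transcripts are widely read as gauges of its activity.

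Total counts ranged from 13956648 to 15794403 in S541 libraries and from 14927663 to 17044139 in DMSO libraries. Some markers went against the label. *ALDH1A1*, an enzyme gene known to be abundant in A549, had 2 counts in 1 S541 library and 0 counts in the other 5 libraries. *AKR1B10*, another such enzyme gene, averaged 0.743 ± 0.0842 CPM (counts scaled to TMM library size) in S541 and 0.862 ± 0.192 CPM in DMSO (SD, n = 3 each). *CDKN2A*, a gene known to be deleted in A549 and looked at here after its values were seen, had 1881 to 4025 counts per library. The epithelial cadherin *CDH1* averaged 0.566 and 1.08 CPM in S541 and DMSO libraries. The keratins were abundant. *KRT8* averaged 1273 ± 60.2 CPM in S541 and 1794 ± 119 CPM in DMSO, and *KRT18* 641 ± 53.3 CPM in S541 and 993 ± 44.0 CPM in DMSO (SD, n = 3 each), and both fell (adjusted p = 0.0124 and 0.00750, edgeR). The 8 markers of the A549 epithelial list summed to 3385 to 3906 CPM in S541 libraries and 4006 to 4592 CPM in DMSO libraries. These ranges do not overlap, and taken singly 31.1% of all tested genes had groups that did not overlap, in either direction. Of the 7 tested genes of the epithelial list, 2 fell and 0 rose, or 28.6%, beside 8.19% of all tested genes. An unadjusted p-value under 0.05 was found for 5 of them, beside 24.8% of all tested genes. Their median log2 fold change was −0.50, and the part of these differences in the values of the Wnt genes was not tested. The design text of the series speaks of retinal profiles, but the 10 retina markers summed to 1.26 to 1.68 CPM in S541 libraries and 1.14 to 1.63 CPM in DMSO libraries. The summed markers of blood cells were 2.00 to 2.52 and 2.23 to 3.06 CPM in S541 and DMSO libraries. Those of fibroblasts and endothelium were 40.5 to 42.4 CPM in S541 libraries and 43.7 to 61.0 CPM in DMSO libraries. These last ranges do not overlap either, and the 4 tested genes of that list had a median log2 fold change of −0.35, with none passing. The cells are therefore called "labelled A549" here, and which line they are was not tested.

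DMSO replicate 2 stood apart from its group. Its gene counts differed from those of DMSO replicates 1 and 3 by a chi-square of 27.3 and 24.4 per degree of freedom, against 13.1 between replicates 1 and 3, and 12.4 to 16.8 among S541 libraries. Without it *DKK1* had an adjusted p = 0.00821 (edgeR) and was again the only member that passed.

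*DKK1* rose about 2-fold and was the only member that changed. *TCF7L2* was higher in every S541 library but lay just outside the threshold, and the other 6 tested members did not pass it. *LGR5* and *NKD1* had too few counts to be tested. "Rose" and "fell" are used for genes under 0.05 in edgeR's quasi-likelihood test after Benjamini-Hochberg adjustment across the 15847 genes tested. In this comparison 1298 genes passed, 8.19% of those tested, with 4.02% higher and 4.17% lower in S541. The members had 1 higher and 0 lower out of 8 tested, a share near that background. An unadjusted p-value under 0.05 was found for 2 of the 8, against 24.8% of all tested genes. The DESeq2 Wald test called 2 of the 8, against 11.3% of all genes, and limma-voom 1, against 7.91%. The median log2 fold change (S541 over DMSO) was 0.29 over the 8 and 0.00 over all tested genes. The 8 include *TCF7*, which passed the filter on low counts only through its S541 libraries, so nothing is read from this median. The number of genes that changed was 375, 349 and 550 without S541 replicates 1, 2 and 3, and 628, 1330 and 398 without DMSO replicates 1, 2 and 3.

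**Figure D1:**
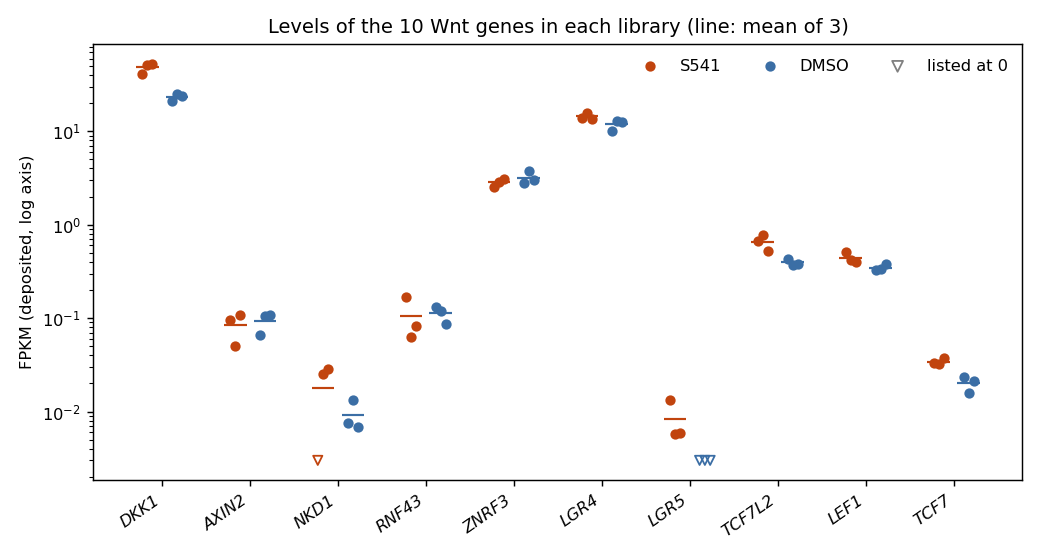
Deposited FPKM (log axis) of each of the 10 genes in each library, S541 libraries in red and DMSO libraries in blue, with a line at the mean of 3 and open triangles for libraries listed at 0. *DKK1* and *LGR4* stand above 10.0 FPKM in every library, and *LGR5* is listed at 0 in all DMSO libraries.

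Per length of gene (FPKM, fragments per kilobase scaled to depth), the members spanned more than 3 orders of magnitude. In S541 libraries the order of mean FPKM was *DKK1* (48.4), *LGR4* (14.4), *ZNRF3* (2.83), *TCF7L2* (0.657), *LEF1* (0.445), *RNF43* (0.104), *AXIN2* (0.0850), *TCF7* (0.0342), *NKD1* (0.0179) and *LGR5* (0.00826). DMSO libraries gave the same order, with means of 23.1, 11.9, 3.19, 0.394, 0.347, 0.113, 0.0926, 0.0201, 0.00919 and 0 FPKM. Neighbours overlapped in their libraries for *RNF43* and *AXIN2* in both groups, for *NKD1* and *LGR5* in S541, and for *TCF7L2* and *LEF1* in DMSO. The mean FPKM of *DKK1* was above that of 95.8% of the tested genes in S541 libraries and 90.4% in DMSO libraries, whereas that of *AXIN2* was above 1.25% and 1.77%. The members thus included an abundant secreted inhibitor and receptor, and a set of classic feedback transcripts close to the limit of detection.

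*DKK1* (ENSG00000107984, chromosome 10, 52314296 to 52318042, plus strand, hg38) encodes Dickkopf-1, a secreted inhibitor that binds LRP5 and LRP6 and keeps them from joining a Wnt and Frizzled complex. It had 1666, 2387 and 2409 counts in S541 libraries, against 916, 1232 and 1145 counts in DMSO libraries. On the CPM scale that was 117, 149 and 156 in S541 libraries and 61.8, 73.9 and 69.2 in DMSO libraries. Every S541 library was above every DMSO library, and the lowest of them was replicate 1. The means were 141 ± 20.9 CPM in S541 and 68.3 ± 6.10 CPM in DMSO (SD, n = 3 each), with 1.04 as the log2 fold change (SE 0.13, adjusted p = 0.00583, edgeR). The 95% interval of the fold was 1.67 to 2.53. *DKK1* stood at position 315 of 15847 by log2 fold change. In bulk RNA, a change in the number of cells that express a gene cannot be told apart from a change in RNA per cell. In the authors' deposited table its log2 fold change was 1.04 with a Q-value of 1.12e-07, and it is listed there as higher.

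The call of *DKK1* held in each of 16 alternative settings, with log2 fold changes of 0.96 to 1.16 and adjusted p-values of 1.43e-09 to 0.0322. An antisense gene, *PRKG1-AS1*, covers 9.61% of the exonic bases of *DKK1* on the other strand, and the strand setting of the counting is unknown from these sources. *PRKG1-AS1* had 11, 17 and 21 counts in S541 libraries and 6 in each DMSO library, and passed the filter on low counts through its S541 libraries alone, so no test of it is given. Reads of both genes at their shared bases cannot be told apart. Its highest count, 21, stands beside at least 916 counts of *DKK1* in every library.

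**Figure D2:**
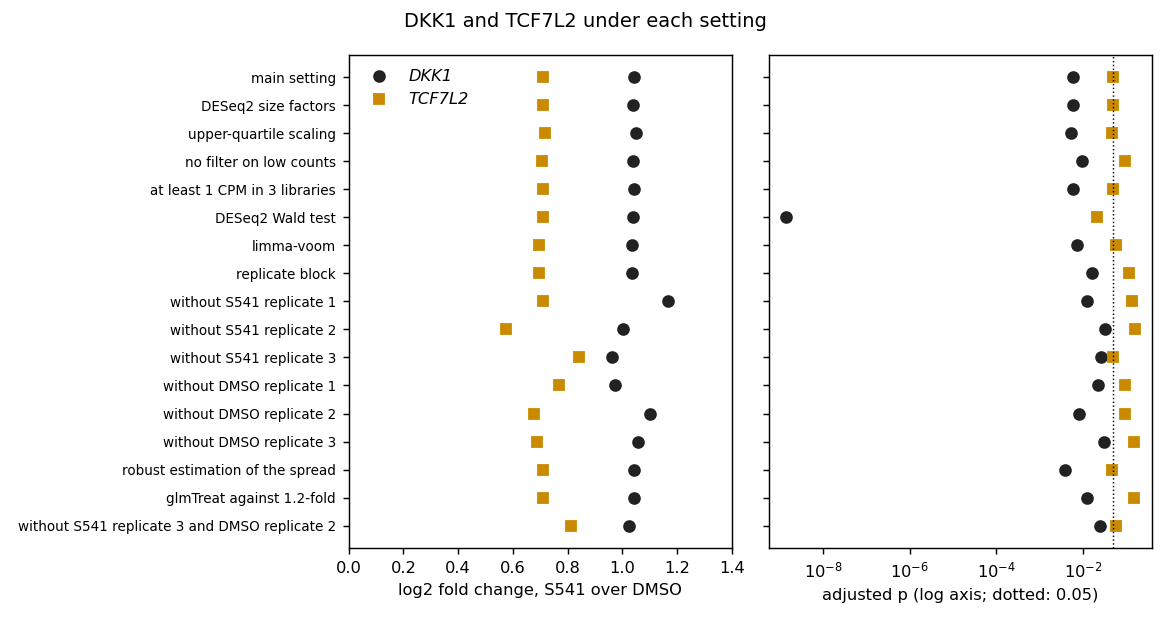
Log2 fold change (left, S541 over DMSO) and adjusted p (right, log axis, dotted line at 0.05) of *DKK1* (circles) and *TCF7L2* (squares) under the main setting and 16 alternatives. All *DKK1* points lie left of the line on the right panel, and *TCF7L2* lies on both sides of it, from 0.0207 to 0.158.

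Among its own family *DKK1* was nearly alone. It made up 97.95 to 99.0% of the summed FPKM of *DKK1*, *DKK2*, *DKK3* and *DKK4* in S541 libraries and 96.8 to 97.5% in DMSO libraries, and *DKK3* made up the rest, with *DKK2* and *DKK4* listed at 0 in all libraries. The log2 fold change of *DKK3* was 0.03 (SE 0.24, adjusted p = 0.957, edgeR). Transcripts of the receptors that DKK1 binds were also counted. *LRP5* averaged 157 ± 9.73 CPM in S541 and 152 ± 10.4 CPM in DMSO (SD, n = 3 each), and *LRP6* 46.6 ± 8.53 and 42.2 ± 5.78 CPM, and neither passed the test. Of the Kremen receptors, which also bind Dickkopf proteins, *KREMEN1* averaged 2.92 ± 0.763 CPM in S541 and 4.46 ± 1.06 CPM in DMSO (SD, n = 3 each), a difference of −0.61 on the log2 scale (SE 0.26, adjusted p = 0.192, edgeR). *KREMEN2* averaged 11.1 ± 0.791 CPM in S541 and 9.97 ± 2.55 CPM in DMSO (0.15, SE 0.19, adjusted p = 0.677, edgeR), so neither passed.

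Promoter windows of RefSeq (build GRCh38.p14), from 250 bases before to 50 after a transcript start, were held for 6 of the 10 members, in 10 windows. They were searched on both strands for the core that TCF/LEF proteins bind, spelled AACAAAG with A or T allowed in each of the first 2 places. The *DKK1* window held 2 matches that do not overlap each other, at bases −95 to −89 and −76 to −70 from the start. Of 35116 windows of the same length, 13.8% held at least 1 match and 1.58% at least 2. The windows below belong to the member that changed, to the member next to the threshold (the *TCF7L2* start that has a match, out of 3 starts) and, for comparison, to the other abundant member, with matches in capitals.
DKK1, chr10:52314031-52314330, plus strand: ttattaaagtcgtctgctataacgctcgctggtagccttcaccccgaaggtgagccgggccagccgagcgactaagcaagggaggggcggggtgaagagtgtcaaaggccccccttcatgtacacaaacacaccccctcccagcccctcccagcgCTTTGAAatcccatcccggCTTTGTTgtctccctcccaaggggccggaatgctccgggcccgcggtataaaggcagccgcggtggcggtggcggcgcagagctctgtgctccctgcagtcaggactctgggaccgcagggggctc
TCF7L2, chr10:113126383-113126682, plus strand: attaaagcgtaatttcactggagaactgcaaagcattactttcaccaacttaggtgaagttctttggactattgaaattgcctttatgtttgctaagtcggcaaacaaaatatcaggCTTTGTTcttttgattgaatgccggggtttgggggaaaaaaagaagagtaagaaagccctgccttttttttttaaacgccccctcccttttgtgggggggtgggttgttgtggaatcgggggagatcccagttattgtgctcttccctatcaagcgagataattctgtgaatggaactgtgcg
LGR4, chr11:27472741-27473040, minus strand: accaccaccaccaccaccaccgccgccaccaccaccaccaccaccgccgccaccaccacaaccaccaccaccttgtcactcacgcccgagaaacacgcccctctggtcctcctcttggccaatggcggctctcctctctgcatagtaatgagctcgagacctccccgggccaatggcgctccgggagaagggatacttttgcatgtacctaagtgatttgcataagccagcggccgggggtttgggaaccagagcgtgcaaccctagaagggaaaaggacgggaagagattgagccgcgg

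Matches were found in 3 of the 10 member windows, these 2 and 1 of 2 windows of *TCF7*, while *LEF1*, *RNF43* and *LGR4* had none of these letters in theirs. A match is a run of letters and not a bound site, and its part in the levels was not tested.

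*AXIN2* (ENSG00000168646, chromosome 17, 65528563 to 65561647, minus strand) encodes a scaffold of the destruction complex and is the most widely used readout of β-catenin activity. It had 15, 9 and 19 counts in S541 libraries, against 11, 20 and 20 in DMSO libraries. The groups overlapped fully. The levels were 0.948 ± 0.344 CPM in S541 and 1.05 ± 0.267 CPM in DMSO (SD, n = 3 each), and the log2 fold change was −0.16 (SE 0.37, adjusted p = 0.833, edgeR). The 95% interval of the fold ran from 0.492 to 1.62, so folds within it are not excluded by these few counts and libraries. Its direction rested on S541 replicate 2, without which the log2 fold change was 0.12. Another gene model on the same strand, *AC004805.1*, covers 25.2% of its exonic bases and had 0 counts in every library. *AXIN1*, the paralog that is not a feedback target, accounted for 98.6 to 99.3% of the summed axin FPKM in S541 libraries and 98.4 to 99.0% in DMSO libraries.

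The tested genes with at least 10 CPM whose profile over the 6 libraries lay closest to that of *AXIN2* were listed. By the root mean square difference of log2 CPM centred on each gene's mean, these were *TBC1D2B* (0.0789), *ZNF394* (0.0850), *RPS3A* (0.123), *RPS6KA1* (0.126) and *POP4* (0.132), out of 10398 candidates. *AXIN2* itself had only 9 to 20 counts per library behind its profile, whose root mean square deviation from its mean was 0.369. Counting error was not separated from this deviation, and some genes lie nearest to any profile. No link of these genes to Wnt activity is therefore read from the list.

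*NKD1* (ENSG00000140807, chromosome 16, 50548330 to 50649249, plus strand) encodes Naked cuticle 1, which binds Dishevelled and dampens the pathway. It had 0, 7 and 8 counts in S541 libraries, against 2, 4 and 2 in DMSO libraries. The S541 libraries lay on both sides of the DMSO libraries, and no library reached the filter's 0.636 CPM, which is 10 counts in a library of median depth. With no filter on low counts its log2 fold change was 0.93 (SE 0.90, adjusted p = 0.602, edgeR). A library with 0 counts still allows up to 3, or 0.210 CPM in S541 replicate 1, and this limit covers counting error only.

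*RNF43* and *ZNRF3* encode membrane ubiquitin ligases that remove Frizzled receptors from the cell surface. *ZNRF3* (ENSG00000183579, chromosome 22, 28883592 to 29057487, plus strand) had 19.0, 21.5 and 23.5 CPM in S541 libraries and 21.3, 29.2 and 23.0 CPM in DMSO libraries. The groups overlapped, with DMSO replicate 2 the highest. The log2 fold change of *ZNRF3* was −0.20 (SE 0.15, adjusted p = 0.466, edgeR), with a 95% interval of the fold from 0.683 to 1.11, and −0.06 without DMSO replicate 2. *RNF43* (ENSG00000108375, chromosome 17, 58352500 to 58417595, minus strand) had 31, 13 and 17 counts in S541 libraries and 26, 27 and 19 counts in DMSO libraries. S541 replicate 1 was the highest and replicate 2 the lowest of all 6. Its log2 fold change was −0.16 (SE 0.39, adjusted p = 0.847, edgeR), and 0.12 without S541 replicate 2. Other gene models cover 73.9% of the exonic bases of *RNF43*, mostly the same-strand model *AC004687.2*. That model has no row in the deposited gene table and could not be analysed, so the source of the few *RNF43* reads is uncertain. As counted, *ZNRF3* held 93.8 to 97.9% of the summed FPKM of this pair in S541 libraries and 95.5 to 97.2% in DMSO libraries. No other gene model covers exonic bases of *ZNRF3*, and the effect of the *RNF43* overlap on this share was not tested.

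*LGR4* and *LGR5* encode receptors for R-spondins, which clear RNF43 and ZNRF3 from the membrane, and *LGR5* is known as a marker of stem cells in the gut. *LGR4* (ENSG00000205213, chromosome 11, 27365961 to 27472775, minus strand) had 108, 122 and 107 CPM in S541 libraries, against 79.6, 105 and 99.3 CPM in DMSO libraries. The groups did not overlap, but only narrowly, and DMSO replicate 1 was the lowest. The log2 fold change of *LGR4* was 0.25 (SE 0.12, adjusted p = 0.244, edgeR), a fold of 1.19 with a 95% interval of 0.982 to 1.44, and it did not pass in any of 16 alternative settings (adjusted p 0.140 to 0.841). *LGR5* (ENSG00000139292, chromosome 12, 71439770 to 71586310, plus strand) had 2, 1 and 1 counts in S541 libraries and 0 in all DMSO libraries. Both groups were at or under the floor of 3 counts per library, so no fold is given. *LGR4* held 98.2 to 99.0% of the summed FPKM of *LGR4*, *LGR5* and *LGR6* in S541 libraries and 97.3 to 98.8% in DMSO libraries.

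**Figure D3:**
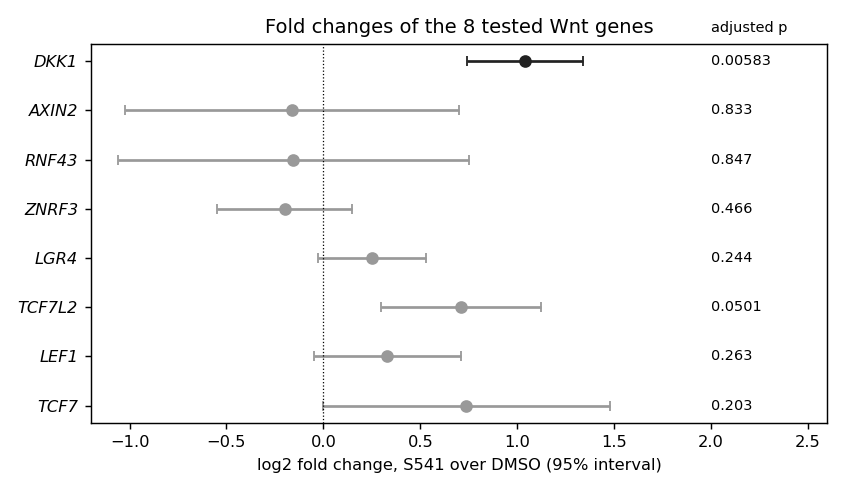
Log2 fold change (S541 over DMSO) with its 95% interval for the 8 tested genes, and the adjusted p at the right. *DKK1* (black) passed with 1.04, and the interval of *TCF7L2* (0.71, adjusted p = 0.0501) also lies above 0.

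The TCF/LEF factors bind DNA at Wnt targets, acting as repressors with TLE proteins and as activators with β-catenin. *TCF7L2* (ENSG00000148737, chromosome 10, 112950250 to 113167678, plus strand), the family member best known from colon and liver, had 146, 193 and 127 counts in S541 libraries, against 100, 99 and 99 counts in DMSO libraries. On the CPM scale this was 10.2, 12.1 and 8.21 in S541 libraries and 6.75, 5.94 and 5.99 in DMSO libraries. All S541 libraries were above all DMSO libraries, with replicate 2 the highest and replicate 3 the lowest of S541. The means were 10.2 ± 1.94 CPM in S541 and 6.23 ± 0.454 CPM in DMSO (SD, n = 3 each), and the log2 fold change was 0.71 (SE 0.18, adjusted p = 0.0501, edgeR), with a 95% interval of the fold from 1.23 to 2.17.

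The position of *TCF7L2* relative to the threshold depended on the setting. It passed in 5 of 16 alternatives, namely with the DESeq2 Wald test (adjusted p = 0.0207), with upper-quartile scaling (0.0476), where 3 libraries had to reach 1 CPM (0.0490), without S541 replicate 3 (0.0485) and with robust estimation of the spread (0.0458). It did not pass in the other 11, among them the fits without S541 replicate 1 (0.131) or 2 (0.158). In the authors' deposited table *TCF7L2* had a log2 fold change of 0.71 and a Q-value of 0.0571, and is not listed as differential.

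*LEF1* (ENSG00000138795, chromosome 4, 108047545 to 108168956, minus strand) had 102, 95 and 90 counts in S541 libraries and 69, 81 and 91 counts in DMSO libraries. After scaling, at 7.15, 5.95 and 5.82 CPM in S541 and 4.66, 4.86 and 5.50 CPM in DMSO, the groups did not overlap. Its log2 fold change was 0.33 (SE 0.16, adjusted p = 0.263, edgeR), with a 95% interval of the fold from 0.967 to 1.63. *TCF7* (ENSG00000081059, chromosome 5, 134114711 to 134151865, plus strand), better known from T cells, had 12, 13 and 15 counts in S541 libraries and 9, 7 and 9 counts in DMSO libraries. The log2 fold change of *TCF7* came to 0.74 (SE 0.32, adjusted p = 0.203, edgeR). *TCF7* passed the filter on low counts only through its S541 libraries, since no DMSO library reached 0.636 CPM, so its place among the tested genes leans towards a higher value in S541.

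In all, 5 tested members (*DKK1*, *LGR4*, *TCF7L2*, *LEF1* and *TCF7*) had every S541 library above every DMSO library, and none had the reverse. Among all tested genes 15.9% did so in that direction. This count includes *TCF7* and rests on groups of 3, and nothing particular to these genes is read from it.

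**Figure D4:**
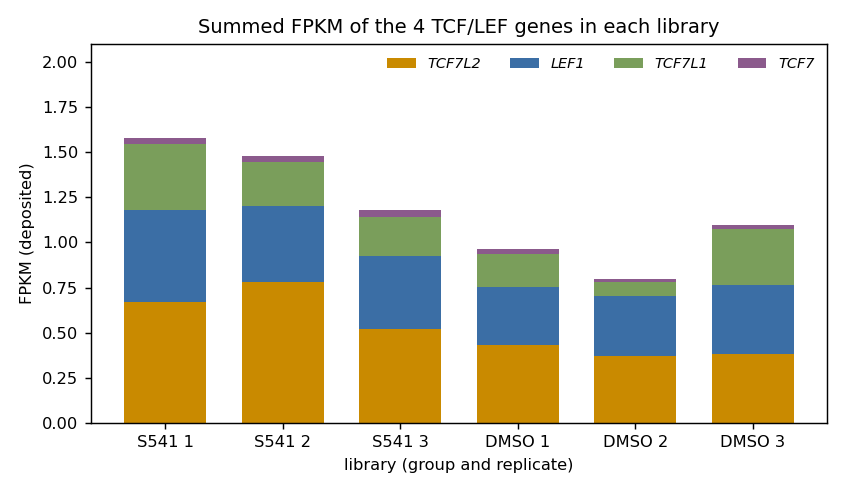
Summed deposited FPKM of *TCF7L2*, *LEF1*, *TCF7L1* and *TCF7* in each library, S541 libraries left and DMSO libraries right. The sums run from 1.18 to 1.58 in S541 libraries and from 0.795 to 1.09 in DMSO libraries, with *TCF7L2* the largest part in all but DMSO replicate 3, where *TCF7L2* and *LEF1* are nearly equal.

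The 4 genes of the family summed to 1.18 to 1.58 FPKM in S541 libraries, against 0.795 to 1.09 FPKM in DMSO libraries. *TCF7L2* made up 42.4 to 52.9% of that sum in S541 libraries and 34.9 to 46.8% in DMSO libraries, ranges that overlap. *LEF1* made up 28.5 to 34.2% in S541 libraries and 33.7 to 41.8% in DMSO libraries. *TCF7L1*, the family member that acts mainly as a repressor, had 24, 18 and 16 counts in S541 libraries and 13, 6 and 24 counts in DMSO libraries, and did not pass (log2 fold change 0.51, SE 0.47, adjusted p = 0.563, edgeR). *TCF7* made up 3.16% or less in every library.

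The rest of the pathway was described by lists of 155 further genes, of which 112 were tested. Of these, 4 rose and 5 fell, or 8.04%, beside 8.19% of all tested genes, and their median log2 fold change was 0.02.

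**Figure D5:**
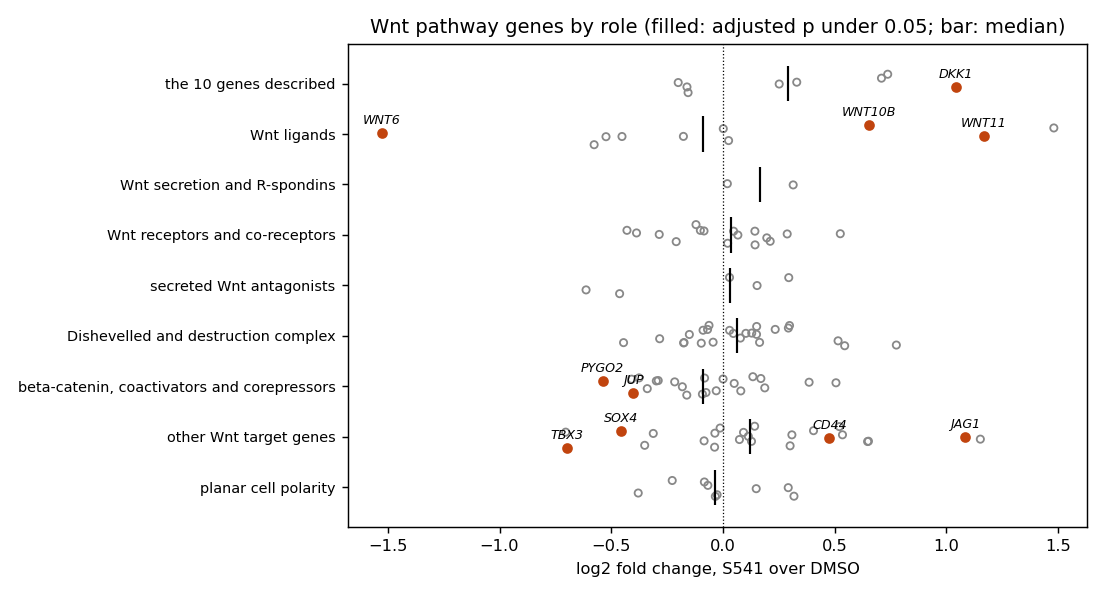
Log2 fold changes (S541 over DMSO) of the tested genes of each role, with filled red points for an adjusted p under 0.05 and a bar at each median. Called genes lie among the ligands, the partners of β-catenin and the other target genes. Medians run from −0.09 for the ligands to 0.29 for the tested ones of the 10 genes described. These include *TCF7*, which passed the filter on low counts only through its S541 libraries.

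Of 19 Wnt ligand genes, 10 were tested, of which 2 rose and 1 fell (median log2 fold change −0.09). That is 3 of 10, beside 8.19% of all tested genes, and 6 of the 10 had an unadjusted p-value under 0.05, beside 24.8%. The DESeq2 Wald test called 5 of them and limma-voom 2, beside 11.3% and 7.91% of all genes. *WNT6* fell, with 7.36, 5.57 and 8.79 CPM in S541 libraries, against 16.3, 25.7 and 20.5 CPM in DMSO libraries (log2 fold change −1.53, SE 0.22, adjusted p = 0.00917, edgeR), and it passed in all 16 alternatives. *WNT10B* rose, at 21.6 ± 3.18 CPM in S541 and 13.7 ± 1.25 CPM in DMSO (0.65, SE 0.15, adjusted p = 0.0354, edgeR), as did *WNT11*, a ligand known mainly for signalling without β-catenin, at 2.57 ± 0.610 and 1.14 ± 0.233 CPM (1.17, SE 0.28, adjusted p = 0.0449, edgeR). The call of *WNT11* ended in each fit without 1 library (adjusted p 0.0556 to 0.139) and under limma-voom (0.0547), and that of *WNT10B* without S541 replicate 1, 2 or 3 or DMSO replicate 1 or 3 (0.0689 to 0.107). Both calls also ended when low counts were not filtered (0.0758 and 0.0684). The most abundant ligand, *WNT7B*, named after its values were seen, had 149 CPM in both groups and did not pass (log2 fold change 0.00, SE 0.09, adjusted p = 0.996, edgeR).

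No gene passed among 2 tested of 7 genes for Wnt secretion and R-spondins, 16 tested of 17 receptors and co-receptors, 5 tested of 17 further antagonists, 24 tested of 26 genes of Dishevelled and the destruction complex, or 9 tested of 14 planar cell polarity genes. At an unadjusted p-value under 0.05 these lists held 0, 3, 2, 2 and 2 genes, the DESeq2 Wald test called 0, 1, 1, 1 and 1, and limma-voom called 0 in each, beside the same shares of all genes. Of the genes named here DESeq2 called *NOTUM* (adjusted p = 0.0428) and *DVL1* (0.0434). Their most abundant members are given as examples. *WLS* and *PORCN*, needed to secrete Wnt proteins, had log2 fold changes of 0.02 (SE 0.22) and 0.31 (SE 0.15). *LRP5* had 0.05 (SE 0.09) and the receptor kinase relative *RYK* 0.07 (SE 0.09). *NOTUM*, an enzyme that removes the lipid from Wnt proteins and is itself a feedback target in other tissues, had 37.8 ± 3.44 CPM in S541 and 52.1 ± 8.65 CPM in DMSO (log2 fold change −0.46, SE 0.14, adjusted p = 0.0818, edgeR), and *TPBG*, a membrane inhibitor, a log2 fold change of 0.29 (SE 0.16). *DVL1*, a Dishevelled protein, had 0.51 (SE 0.17, adjusted p = 0.112, edgeR), and the kinase gene *CSNK1E* 0.16 (SE 0.09). Another gene model on the same strand, *TPTEP2-CSNK1E*, covers 21.1% of the exonic bases of *CSNK1E*. The polarity genes *SCRIB* and *CELSR2* had log2 fold changes of 0.15 (SE 0.09) and −0.23 (SE 0.12).

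Among β-catenin, its partners and the corepressors, all 22 genes were tested, of which 2 fell and none rose (median log2 fold change −0.09). That is 9.09% of the list, near the 8.19% of all tested genes. An unadjusted p-value under 0.05 was found for 7 of them, beside 24.8% of all tested genes. DESeq2 called 3 and limma-voom 2, beside 11.3% and 7.91% of all genes. *PYGO2*, a Pygopus protein that links β-catenin complexes to chromatin, fell to 89.1 ± 6.58 CPM in S541, against 129 ± 4.04 CPM in DMSO (−0.54, SE 0.09, adjusted p = 0.0125, edgeR), and other gene models cover 13.3% of its exonic bases. *JUP*, which encodes plakoglobin, a relative of β-catenin found in cell junctions, fell to 660 ± 49.2 CPM in S541, against 871 ± 40.1 CPM in DMSO (−0.40, SE 0.08, adjusted p = 0.0282, edgeR). *CTNNB1* itself, the β-catenin gene, had 229 ± 8.78 CPM in S541 and 209 ± 15.4 CPM in DMSO (0.13, SE 0.08, adjusted p = 0.383, edgeR). The call of *PYGO2* ended without S541 replicate 1 or 2 or DMSO replicate 3 (adjusted p 0.0556 to 0.0598), and that of *JUP* without S541 replicate 1 or 2 or DMSO replicate 1 or 3 (0.0547 to 0.114) and when low counts were not filtered (0.0514).

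Of 33 other genes known as Wnt targets in some tissue, 24 were tested, of which 2 rose and 2 fell (median log2 fold change 0.12). That is 16.7% of the 24, beside 8.19% of all tested genes. Of the 24, 8 had an unadjusted p-value under 0.05, beside 24.8% of all tested genes. DESeq2 called 6 and limma-voom 4, beside 11.3% and 7.91% of all genes. Nothing particular to this list is read from these counts. *JAG1*, a Notch ligand, rose, with 12.2, 10.9 and 10.4 CPM in S541 libraries, against 5.06, 5.76 and 4.96 CPM in DMSO libraries (1.08, SE 0.15, adjusted p = 0.00752, edgeR). The transcription factor gene *TBX3* fell to 80.3 ± 2.67 CPM in S541, against 130.2 ± 3.88 CPM in DMSO (−0.70, SE 0.08, adjusted p = 0.00435, edgeR). Both passed in all 16 alternatives. The adhesion receptor *CD44* rose, at 210.2 ± 22.4 CPM in S541 and 151 ± 15.1 CPM in DMSO (0.48, SE 0.11, adjusted p = 0.0408, edgeR). *SOX4*, a transcription factor gene, fell to 47.1 ± 1.63 CPM in S541, against 64.6 ± 2.00 CPM in DMSO (−0.46, SE 0.08, adjusted p = 0.0200, edgeR). The call of *CD44* ended in each fit without 1 library (adjusted p 0.0525 to 0.129) and when low counts were not filtered (0.0694), and that of *SOX4* without S541 replicate 1, 2 or 3 or DMSO replicate 1 or 3 (0.0525 to 0.0916).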

How the data were processed

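RNA-seq of total RNA was analysed from 6 libraries, 3 per group, mapped to the deposited columns by title. The deposited whole-number counts per gene, the FPKM values, and a log2 fold change, p-value and Q-value per gene were made by the authors. The build is hg38 and edgeR was used, per the submitters' processing notes, and the aligner, counter and strand setting are unknown from these sources. Of the gene IDs, 96.9% had the locus of GENCODE release 29, which was used for exon overlaps.

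The counts were fitted whole with edgeR 4.0.16 in R 4.3.3 (TMM, filterByExpr, group as the only term, quasi-likelihood test, 2-sided, Benjamini-Hochberg adjustment at 0.05). SE is the absolute log2 fold change divided by the square root of F. The functions were tested on simulated data. Alternatives were 2 scalings, 2 filters, DESeq2 1.42.0, limma 3.58.1 (voom), a replicate block and each library left out. Added after seeing the data were robust estimation, glmTreat against 1.2-fold, and leaving out S541 replicate 3 with DMSO replicate 2.

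The members and lists were chosen with earlier results of these data known. Named genes are the members, up to 4 called members of each list by size with at least 1 CPM (or the 2 most abundant where none passed), and 5 genes nearest *AXIN2*. *DKK3*, *LRP6*, *KREMEN1*, *KREMEN2*, *AXIN1*, *TCF7L1*, *CTNNB1* and *WNT7B* were added after their values were seen.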

Additional observations from a re-analysis of the deposited data

How the results depend on the processing

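The number of changed genes, 1298 in the setting reported, was 753 with no filter on low counts, 392 with the replicate block, 427 with glmTreat against 1.2-fold, and 349 to 1330 with 1 library left out. The number of changed members, 1 as reported, was 2 with the DESeq2 Wald test, with robust estimation, with upper-quartile scaling and where 3 libraries had to reach 1 CPM, and 1 to 2 with 1 library left out, and *TCF7L2* was the added gene each time. Log2 fold changes near 0 turned sign for *AXIN2* (0.12) and *RNF43* (0.12) without S541 replicate 2 (ranges with 1 library left out −0.40 to 0.12 and −0.65 to 0.12), for *RNF43* (0.03) and *WLS* (−0.31) without S541 replicate 3 and DMSO replicate 2, for *WLS* without S541 replicate 3 (−0.12), DMSO replicate 2 (−0.17) or DMSO replicate 3 (−0.0072), with 0.27 as its highest value, and for *LRP5* without DMSO replicate 1 (−0.0083). For these the cause was not tested. No pairing of libraries by replicate number was seen. Same-numbered deviations from the group mean correlated at 0.10, −0.12 and −0.11 for numbers 1 to 3. The highest correlation was that of S541 replicate 3 with DMSO replicate 2 (0.24). With 3 libraries per group, each centred on its group's mean, these values cannot show if the libraries were paired. With the replicate block *DKK1* kept its call (log2 fold change 1.03, adjusted p = 0.0164) and *TCF7L2* had an adjusted p = 0.113. The block and glmTreat each ended the calls of *WNT10B*, *WNT11*, *PYGO2*, *JUP*, *CD44* and *SOX4*, and leaving out S541 replicate 3 with DMSO replicate 2 ended those of *WNT10B*, *WNT11* and *CD44*. Depth limits *AXIN2*, *RNF43*, *TCF7*, *NKD1* and *LGR5*, all under 2 CPM in both groups.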

Other observations

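*MYC*, a Wnt target in the colon, was not comparable between replicates and was looked at after its values were seen. It had 181, 144 and 14.4 CPM in S541 libraries and 10.5, 12.5 and 129.6 CPM in DMSO libraries. In both groups the highest library was more than 12 times the lowest, at 12.6 times in S541 and 12.3 times in DMSO, which is rank 6 of 10398 genes with at least 10 CPM. Only 14 of those genes had a 5-fold or larger spread in both groups. *APC*, the scaffold of the destruction complex, also varied, with 7.08, 34.0 and 18.7 CPM in S541 libraries and 52.2, 5.46 and 10.3 CPM in DMSO libraries. Neither gene's high libraries follow the treatment, and neither passed the test (adjusted p = 0.569 for *MYC* and 0.924 for *APC*, edgeR). What sets these levels was not tested.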
